A study of Homo sapiens with 6 samples.

Results

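The effect of emetine before the transcription block was read from 2 of the 6 two-colour arrays of this time course in the human cell line GM00156, which is held by the Coriell repository. The 2 arrays were taken by their labels. On the 0 min array, mRNA of cells kept for 10 h with 100 µg/ml emetine dihydrochloride hydrate was set against mRNA of untreated cells kept for the same 10 h. The self-self array carried mRNA of emetine-treated cells of the 0 min harvest in both channels. Per the labels, actinomycin D at 5 µg/ml was added to treated and untreated cells for the 0 min array and for the later harvests at 10 min, 30 min, 1 h and 8 h, so the 0 min array was taken at the moment of the block. For the self-self array the labels do not mention actinomycin D. Each channel received 4 µg of mRNA, with treated RNA in Cy3 and untreated RNA in Cy5. All cells came from 1 line, and the labels name neither its cell type nor separate cultures.

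Some limits apply to every value. There was 1 array for each condition and no replicate, so no test is given and each log2 ratio is set against the spread of the self-self array, which shows labelling and hybridisation noise but not the variation between cultures. The labels do not state which channel is the numerator, so values are described by their sign alone, and no transcript is called higher or lower in treated cells. If treated RNA is the numerator, a positive value means more of the transcript, relative to the housekeeping genes that set zero, in treated cells. The labels of the 0 min array disagree with each other. Its channels are named as treated and as untreated cells, but its free text says that a treated sample met its treated equivalent. The measurement beside that conflict is the width of the distributions, a robust SD of 0.44 at 0 min and of 0.12 on the self-self array.

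Emetine, an alkaloid of ipecac root, binds the small ribosomal subunit and stops ribosomes from moving along mRNA, so that protein synthesis ends. Many transcripts of early response genes are short-lived and are degraded in a way that depends on translation or on proteins that turn over quickly, and a translation inhibitor is known to raise them, which is called superinduction. Nonsense-mediated decay is another route that needs a moving ribosome. Transcripts of housekeeping genes are mostly stable and are the usual frame against which such changes are read. Emetine followed by actinomycin D has been used in screens for transcripts with premature stop codons.

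Of 14080 probes, 13575 were measured on both arrays. Their median was 0.05 at 0 min and 0.01 on the self-self array, and the robust SD was 3.65 times as wide at 0 min. The central 99% of the self-self values ran from -0.34 to 0.50, and this interval is called the self-self range. At 0 min 2321 probes (17.1%) lay above it and 2678 (19.7%) below it, together 36.8% of probes, where the self-self array itself has 1% outside by construction. The sides were close in number and unlike in reach. Above 1, a ratio of 2-fold, lay 869 probes, and below -1 lay 139. Above 2 the counts were 203 against 5, and above 3 they were 52 against 1. The lowest value was -3.86 and the highest 5.94. In bulk RNA of this kind a change in the mix of cells and a change of RNA per cell cannot be told apart.

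**Figure D1:**
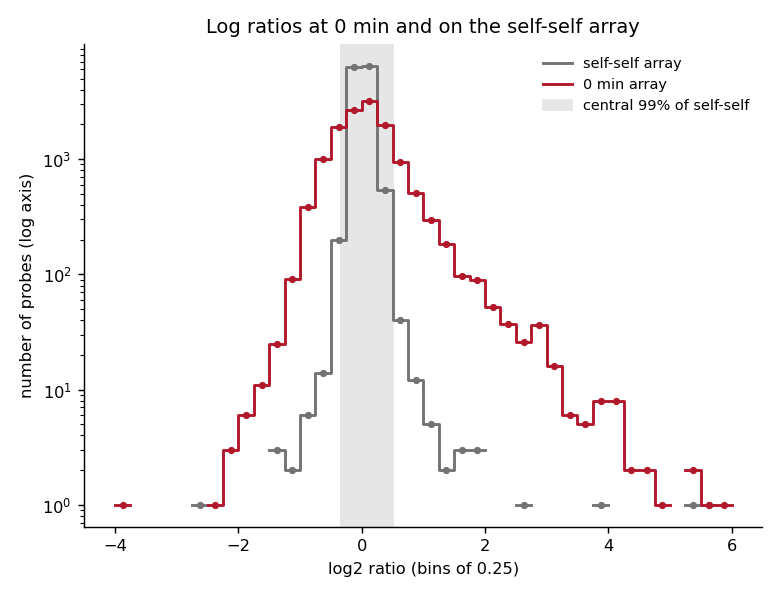
Number of probes (log axis) by log2 ratio in bins of 0.25 on the 0 min array (red) and the self-self array (grey), over 13575 probes measured on both; the shaded band is the self-self range. The 0 min distribution is wider on both sides and its positive tail reaches 5.94, against -3.86 on the negative side.

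Gene names could be given to 11132 of these probes, which report 8887 genes, and a gene with several probes is given by their mean. By that mean 1540 genes (17.3%) lay above the range and 1592 (17.9%) below it, and the median over genes was 0.06 at 0 min and 0.01 on the self-self array. Above 1 lay 589 genes, above 2 lay 134 and above 3 lay 38, while 73 lay below -1. Of the 38 genes above 3, 22 belong to 4 groups, the immediate-early transcription factors, the NF-kB pathway, the unstable cytokines and the histones, which together hold 93 measured genes. The 4 were picked from 37 groups written with earlier results of these data known, so the overlap is a description only.

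Transcription factors of the immediate-early class and inhibitors of NF-kB supplied most of the 12 genes farthest on the positive side. EGR4, a zinc finger factor of the early growth response family, stood at 5.94 at 0 min and at 0.07 on the self-self array. Its values at 10 min, 30 min, 1 h and 8 h were 6.74, 6.44, 1.19 and 5.80. EGR4 was thus far outside the self-self range on the 5 arrays of treated against untreated cells, and its value was smallest at 1 h. TNFAIP3, a ubiquitin-editing enzyme that restrains NF-kB signalling, stood at 5.58 at 0 min with -0.08 on the self-self array, and its other probe was at 5.49. Over both probes the mean was 5.53 at 0 min and then 6.26, 6.27, 1.31 and 6.17. ATF3, a transcription factor induced by many stresses, was at 4.88 with 0.06 on the self-self array, followed by 5.16, 5.36, 1.31 and 5.02. NR4A3, an orphan nuclear receptor, was at 4.63 and 0.03, followed by 5.54, 4.6, 1.38 and 4.97. For ATF3 and NR4A3 the 0 min value was within 1 log2 unit of those at 10 min, 30 min and 8 h.

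NFKBIA, the inhibitor that holds NF-kB in the cytoplasm, was at 4.41 at 0 min and at -0.01 on the self-self array, then at 4.89, 4.67, 0.77 and 4.13. NFKBIE, another inhibitor of the same family, was at 4.35 and -0.05, then at 4.64, 5.24, 1.29 and 5.04. TRAF1, an adaptor of tumour necrosis factor receptors, was at 4.14 and -0.03, then at 4.56, 4.97, 1.09 and 3.66. NFKBIA and TRAF1 were lower at 8 h than at 0 min. The chemokine CXCL3 was at 4.17 and 0.02, then at 5.03, 5.23, 1.12 and 5.21. EGR3 was at 4.16 and -0.17, then at 4.92, 3.98, 1.08 and 4.63, and EGR1 was at 4.14 and 0.02, then at 4.27, 4.41, 1.00 and 3.99. The 3 measured EGR factors therefore lay between 4.14 and 5.94 at 0 min. H4C8, a histone H4 gene, was at 5.48 and 0.03, and its other probe was at 4.03. MCF2 was at 4.69 and 0.07, followed by 5.44, 4.94, 1.23 and 5.56. All 12 were larger at 10 min than at 0 min and 8 of 12 were larger at 8 h, and their 1 h values ran from 0.77 to 1.63.

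**Figure D2:**
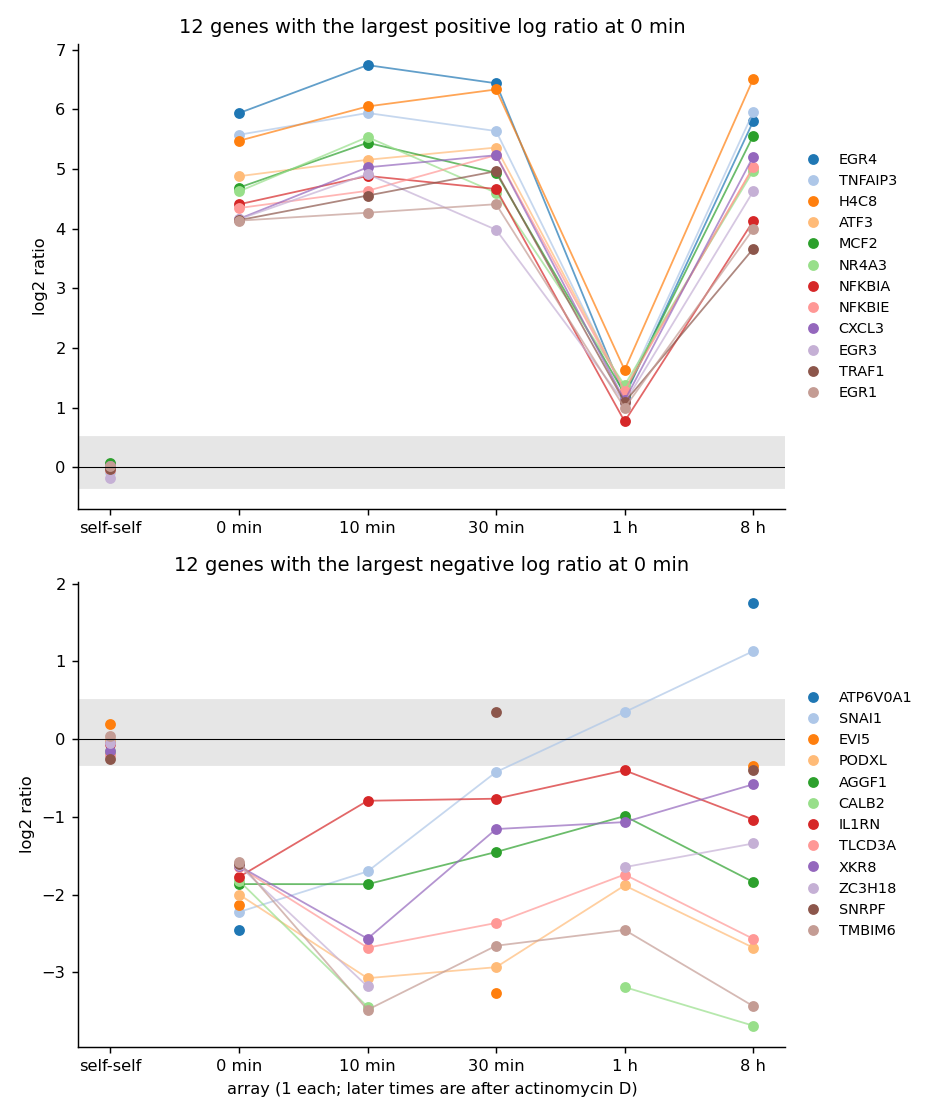
Log2 ratio (vertical axis) of the 12 genes farthest from 0 on each side at 0 min, 1 point for each array, with lines joining harvests that follow each other; the shaded band is the self-self range. The positive genes start between 4.14 and 5.94 and dip to between 0.77 and 1.63 on the 1 h array, and the negative genes start between -1.58 and -2.46, with points absent where an array gave no value.

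Among the 26 measured immediate-early genes the median at 0 min was 1.32, with -0.02 on the self-self array, and 19 lay above the range, which is 73.1% against 17.3% of all genes, and 2 below it. Grouped by role after their values were seen, 6 of 8 AP-1 and ATF subunits were above the range with a median of 2.06, as were 3 of 3 EGR factors with a median of 4.16 and 3 of 3 NR4A receptors with a median of 1.29. Within the families the members differed widely. JUN, FOS and JUNB, subunits of AP-1 named after their values were seen, were at 3.84, 3.55 and 3.27, while JUND and FOSB of the same family lay inside the range at -0.18 and 0.16. NR4A3 was at 4.63 and NR4A2 at 0.89. On the negative side were ID2 at -0.56 and ID1 at -0.35, inhibitors of basic helix-loop-helix factors.

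NF-kB is a family of dimeric transcription factors that are held inactive by inhibitor proteins and released when IkB kinases mark those for destruction. Of its 21 measured genes 13 (61.9%, against 17.3% of all genes) lay above the range and 2 below it. The median was 1.23, with -0.05 on the self-self array. TNFAIP3 led with a mean of 5.53 over its 2 probes, followed by the inhibitors NFKBIA and NFKBIE, by TRAF1 and by TNFAIP2 at 4.13, a gene induced by tumour necrosis factor. The DNA-binding subunits were lower than these farthest members, but not lower than the inhibitors and feedback genes as a role. The 7 measured inhibitors and feedback genes had a median of 0.94, with 4 above the range and 1 below it. The subunits had a median of 1.97. REL was at 2.41, NFKB1 at 2.18, RELB at 1.77 and RELA at 1.23, so 4 of 4 measured subunits were above the range. Of the 4 measured IkB kinase genes only IKBKE was above it, at 0.63. That value is the mean of 2 probes, at 0.28 and 0.97, and the first lies inside the range. The catalytic subunits IKBKB and CHUK were inside the range at 0.29 and -0.15. These subunits and kinases were named after their values were seen. The members below the range were MAP3K8, a kinase of the same pathway, at -0.70 and the inhibitor NFKBIB at -0.42.

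Promoter windows from RefSeq, from 250 bases before to 50 bases after a start on GRCh38.p14, were found for 7261 of the 8887 genes and searched on both strands at every listed start. The NF-kB motif matched in 10 of 18 windowed genes of the NF-kB group (55.6%) and in 17.9% of all genes. It matched in 25% of genes above 2 at 0 min and in 21.4% of genes above 3. The 10 genes of the group with a match ran from TNFAIP3, NFKBIA and REL to MAP3K8 and NFKBIB, so genes with the motif lay on both sides of the range. A match describes letters and not binding, and no test was made. The bases before the start are shown for the gene with the largest value of the pathway and for its chemokine target CXCL3, with NF-kB matches in capitals.
TNFAIP3, chr6:137867009-137867258, plus strand: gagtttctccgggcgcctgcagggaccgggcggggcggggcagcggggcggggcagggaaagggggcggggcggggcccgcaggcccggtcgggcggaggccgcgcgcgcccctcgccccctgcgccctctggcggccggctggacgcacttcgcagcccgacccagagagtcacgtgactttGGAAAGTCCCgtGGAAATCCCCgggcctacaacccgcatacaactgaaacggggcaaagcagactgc
CXCL3, chr4:74038690-74038939, minus strand: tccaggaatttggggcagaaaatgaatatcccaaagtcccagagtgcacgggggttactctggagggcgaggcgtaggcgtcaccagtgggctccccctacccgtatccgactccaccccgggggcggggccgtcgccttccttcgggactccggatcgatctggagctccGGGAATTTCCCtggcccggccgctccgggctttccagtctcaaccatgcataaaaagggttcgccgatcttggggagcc
The matches of TNFAIP3 begin 67 and 55 bases before the start. Those of CXCL3 begin 79 and 78 bases before it and overlap, so they mark 1 stretch of letters on both strands.

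EGR1 is shown as a member of the immediate-early group with a known serum response in its promoter. The CArG box, to which serum response factor binds, was found in 2 copies, in capitals, which begin 105 and 83 bases before the start.
EGR1, chr5:138465229-138465478, plus strand: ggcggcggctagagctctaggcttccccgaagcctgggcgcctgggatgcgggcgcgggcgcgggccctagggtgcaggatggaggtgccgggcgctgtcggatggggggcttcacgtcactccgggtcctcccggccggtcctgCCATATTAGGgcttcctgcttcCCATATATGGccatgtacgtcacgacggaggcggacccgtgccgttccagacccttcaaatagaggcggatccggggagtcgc
Across all 7261 genes 1.87% had a CArG box in their windows, against 9.52% of the 21 immediate-early genes with a window, which is 2 genes. The TATA letters TATAAA were in 32.1% of the 28 genes above 3, in 18.5% of genes above 2 and in 11.2% of all genes. They were in 33.3% of the immediate-early genes, in 50% of the 20 unstable cytokines and in 65.0% of the 20 histones. The cyclic AMP response element TGACGTCA was in 4 of the 28 genes above 3 (14.3%), in 6.48% of genes above 2 and in 3.76% of all. The AP-1 and EGR motifs were in 10.7% and 7.14% of genes above 3, against 8.43% and 19.0% of all.

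Cytokines and chemokines, secreted signals whose mRNA often carries AU-rich decay elements, were grouped with PTGS2, PLAU and PLAUR, which are neither. The group had a median of 0.49 over 26 genes. Above the range lay 12 (46.2%, against 17.3% of all genes) and below it 3. CXCL3 was at 4.17, CXCL8 at 3.96, the cytokine LIF at 3.09, IL6 at 3.01 and CXCL1 at 2.86. The CXC chemokines were split, since 3 of 5 were above the range while CXCL2 at -0.13 and CXCL10 at -0.09, named after their values were seen, were inside it. The range of the group reached to -1.52 for IL11, a cytokine of the IL6 family, and -1.10 for PLAUR, the urokinase receptor. Both stayed negative later, IL11 at -2.18, -1.74, -1.02 and -1.84 and PLAUR at -1.66, -1.28, -0.76 and -1.35.

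Other regulators with short-lived mRNA showed a few large values and many small ones. The shares over all genes were 17.3% above the range and 17.9% below it. Of 15 Kruppel-like factors and MYC network genes 4 were above the range and 1 below it, with a median of 0.29. KLF10 was at 3.61, KLF5 at 3.24, KLF6 at 2.10 and KLF7 at 1.10, while MXI1, a MYC antagonist, was at -0.35. MYC itself was inside the range at 0.34 and then stood at 1.23, 3.39, 1.15 and 4.15, so its positive value belongs to the later harvests. It was named after its values were seen. Of 12 MAP kinase phosphatases and Sprouty genes, which end growth factor signals, 5 were above the range and 0 below it, with a median of 0.34. They were SPRY2 at 1.62, DUSP5 at 1.21, DUSP6 at 1.16, DUSP3 at 0.94 and DUSP14 at 0.73.

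Genes of the p53 response had a median of 0.29 over 24, with 11 above the range and 2 below it. Over all genes the shares were 17.3% above and 17.9% below. The kinase PLK2 was at 2.75, the death inducer BBC3 at 2.31, the death receptor TNFRSF10B at 2.08, PMAIP1 at 1.26 and the kinase PLK3 at 1.23, with CCNG2, a cyclin, at -0.67 on the other side. Regulators of apoptosis were balanced, 6 above and 6 below among 20. The survival factor MCL1, a protein of very short half-life, led at 2.57, followed by BBC3 at 2.31 and by CFLAR, an inhibitor of death receptors, at 1.6. BIRC2 was at 0.71. The caspase CASP6 was at -0.68 and the mitochondrial death protein BNIP3 at -0.62.

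Histones, the proteins that package DNA, had a median of 1.29 over 20 genes. Of these 12 (60.0%, against 17.3% of all genes) were above the range and 2 below it. The group includes H1 genes, which are linker and not core histones. H4C8 over 2 probes was at 4.75, H4C5 at 3.96, H2BC15 at 2.80, H2BC13 at 2.79 and H2AC6 at 2.76. By subunit, 4 of 6 H2B genes were above the range with a median of 2.60, 3 of 4 H4 genes with a median of 2.61, 2 of 3 H2A genes and 2 of 3 H1 genes. The 5 replication-independent members measured had a median of 0.03, and of them H3-3B was above at 1.25 and H2AX below at -0.50. H2BC21, an H2B gene with 9 spots, was at -0.56. Its spots ran from -0.96 upward, with 8 below the range and 1 above it. Near-identical histone genes can hybridise to the same probe, so the number of separate members is uncertain. Most replication-dependent histone mRNA lacks a poly(A) tail, and the labels name an mRNA extraction kit.

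Splicing regulators of the SR class had a median of 0.66 over 15 genes. Of these 9 (60.0%, against 17.3% of all genes) were above the range and 2 below it. The cyclin CCNL1, which acts with splicing kinases, was at 3.78 with 0.00 on the self-self array, TRA2B at 1.30, SRSF3 at 1.22, RBM39 at 1.05 and the kinase CLK1 at 1.05. SRSF9 at -0.49 and the kinase SRPK1 at -0.45 were on the other side. Known targets of nonsense-mediated decay, whose mRNA is removed after a ribosome meets an early stop, had a median of 0.31 over 34 genes. Above the range lay 14 (41.2%, against 17.3% of all genes), and 6 lay below it. Over the members with more than 1 probe the median was 1.19. ATF3 led, followed by DDIT3, a stress transcription factor, at 3.22, the kinase MAP3K14 at 3.06, GADD45B, a growth arrest gene, at 2.88 and IFRD1 at 1.61. The largest of them are also immediate-early, NF-kB or stress genes. BAG1, a co-chaperone, was at -0.84 and HNRNPDL at -0.56. The decay factors themselves were near 0, with a median of -0.01 over 5 measured genes and 1 of 5 below the range.

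Of all genes 17.3% were above the range and 17.9% below it, which is the background for the 2 groups that follow. Of 124 zinc finger genes of the ZNF class 29 (23.4%) were above the range and 8 below it, with a median of 0.17. ZNF217 at 1.82, ZNF317 at 1.77, ZNF24 at 1.54, ZNF140 at 1.32 and ZNF330 at 1.28 were the farthest, while ZNF839 was at -0.60. Interferon-stimulated genes had a median of 0.16 over 30, with 10 above and 1 below. IRF2 at 1.52, IFIT2 at 1.13 and ISG20 at 0.97 led, and OAS1, an antiviral synthetase, was at -0.89.

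**Figure D3:**
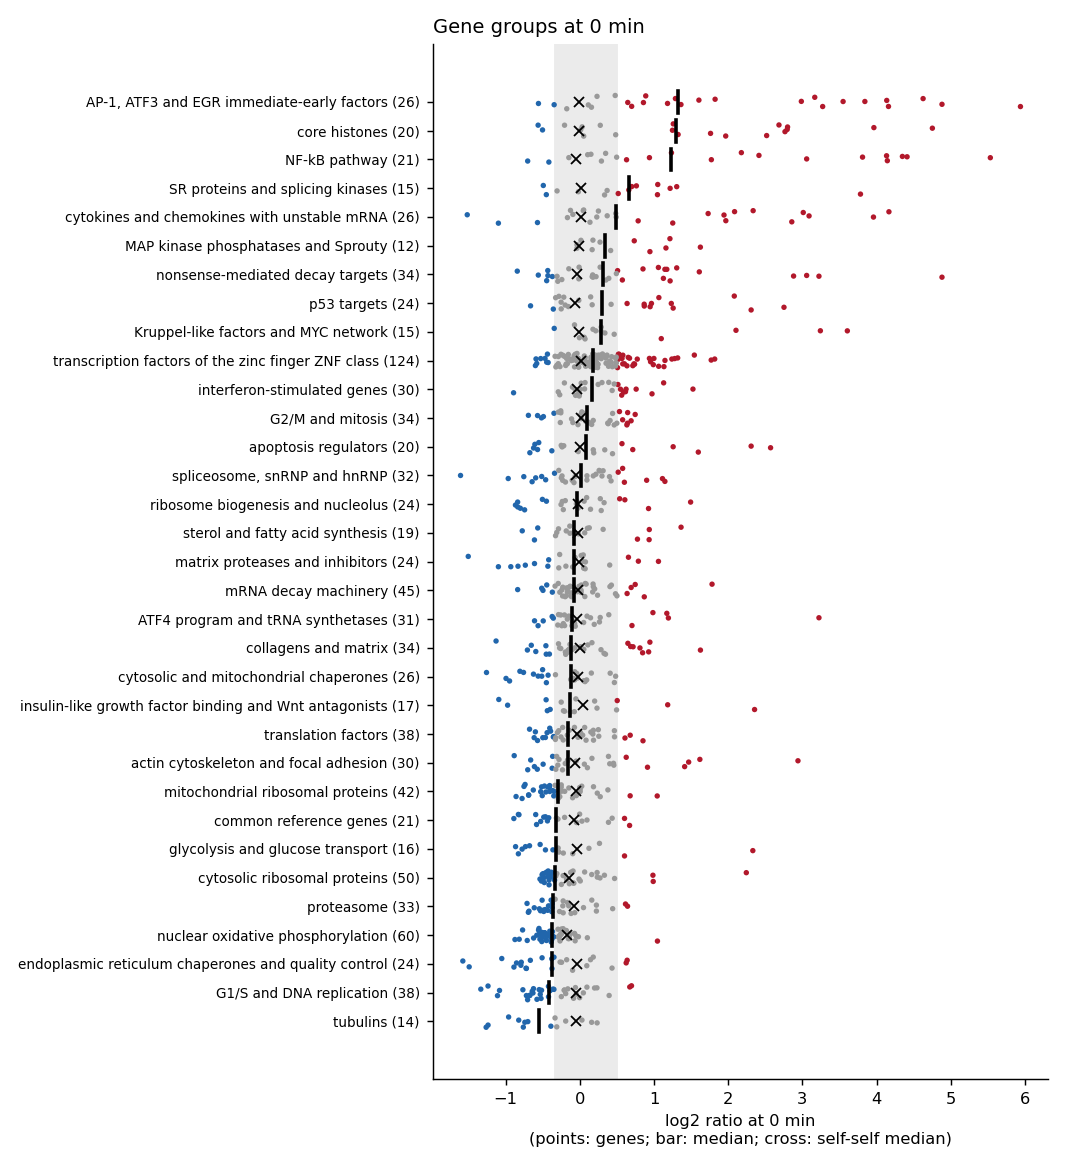
Log2 ratio at 0 min (horizontal axis) of every measured gene of 33 groups, ordered by the group median; bars are medians at 0 min, crosses the medians on the self-self array, the shaded band is the self-self range, and the number measured is in brackets. The group medians run from 1.32 for immediate-early genes to -0.55 for tubulins, and every cross lies between -0.18 and 0.04.

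The negative side reached less far, and its 12 farthest genes came from varied classes. ATP6V0A1, a subunit of the proton pump of lysosomes, was at -2.46 at 0 min and at -0.02 on the self-self array, and the only later value was 1.75 at 8 h. SNAI1, a repressor of E-cadherin with short-lived mRNA, was at -2.22 and -0.20, then at -1.70, -0.42, 0.35 and 1.13. SNAI1 thus passed from the negative to the positive side across the harvests. EVI5, a regulator of Rab GTPases, was at -2.13 and 0.20, with -3.26 at 30 min and -0.35 at 8 h. PODXL, a sialomucin of the cell surface, was at -2.0 and -0.01, then at -3.07, -2.93, -1.88 and -2.68. CALB2, the calcium-binding protein calretinin, was at -1.82 and -0.15, with another probe at -1.36, and stood at -3.44, -3.19 and -3.69 at 10 min, 1 h and 8 h. TMBIM6, a membrane protein of the endoplasmic reticulum that restrains cell death, was at -1.58 and 0.04, then at -3.48, -2.66, -2.45 and -3.43. For PODXL, CALB2 and TMBIM6 the value at 10 min was larger in size than at 0 min. IL1RN, the interleukin-1 receptor antagonist, went the other way, at -1.77 and -0.06, then -0.79, -0.77, -0.40 and -1.03. The other 5 were AGGF1 at -1.86, TLCD3A at -1.64, XKR8, a lipid scramblase, at -1.63, ZC3H18 at -1.62 and SNRPF, a core protein of splicing complexes, at -1.61. SNRPF was measured later only at 30 min and 8 h, at 0.35 and -0.39. Of the 12, 7 were measured at every later harvest and 7 of the 9 measured at 10 min were larger in size there, while 4 of 12 were larger at 8 h.

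Tubulins build microtubules, and the mRNA of alpha- and beta-tubulins is known to be controlled during translation by the pool of free tubulin. The tubulin group, which also holds gamma-tubulins and the gamma-tubulin complex genes TUBGCP2 and TUBGCP3, had the lowest group median, -0.55 over 14 genes with -0.05 on the self-self array. Below the range lay 8 (57.1% against 17.9% of all genes) and above it 0. TUBA3C was at -1.26, TUBA4A at -1.24, TUBB4B at -0.96, TUBG1 at -0.82 and TUBG2 at -0.76. Of the alpha-tubulins 2 of 4 were below and of the beta-tubulins 3 of 6, with medians of -0.79 and -0.51. At 10 min TUBA3C and TUBA4A stood at -3.96 and -3.85, so their 0 min values were the smaller in size. TUBA1A had 9 spots under 1 accession that ran from -1.19 to 0.30 at 0 min and from -0.25 to 0.40 on the self-self array, and its mean of -0.34 lay inside the range. TUBB had a mean of 0.03 over 12 probes, but these ran from -0.96 to 1.19 at 0 min, beyond the range on both sides. The counts of the group use such means. Tubulin genes are alike in sequence, so 1 probe can report several of them.

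The 38 measured genes of the G1/S transition and of DNA replication had a median of -0.41. Of these 22 (57.9%, against 17.9% of all genes) were below the range and 2 above it. Cyclin D1 (CCND1) was at -1.34, then at -1.78, -1.74, -1.14 and -1.86. GINS3, a subunit of the replicative helicase, was at -1.24, the single-strand binding protein RPA2 at -1.11, the sliding clamp PCNA at -1.08 and GINS2 at -0.77. Of 7 measured MCM and GINS genes 5 were below the range, with a median of -0.63. UNG, a repair glycosylase, at 0.70 and the transcription factor E2F3 at 0.67 lay above it. Among 34 mitotic genes 7 (20.6%) were above and 5 (14.7%) below, near the shares over all genes, with a median of 0.10. AURKB at 0.74, CKS2 at 0.69 and KIF23 at 0.64 were above, and STMN1 was below at -0.69.

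The secretory route was also on the negative side. Chaperones and quality control genes of the endoplasmic reticulum had a median of -0.38 over 24 genes. Of these 14 (58.3%, against 17.9% of all genes) were below the range and 2 above it. TMBIM6 was followed by the co-chaperone DNAJB9 at -1.49, the secreted survival factor MANF at -1.05, the translocon subunit SEC61B at -0.89 and the disulfide isomerase PDIA4 at -0.85. SEC61B also lay below the range on the self-self array, at -0.37. Of 6 measured genes of the translocon and signal peptidase 5 were below, with a median of -0.76. The calcium-binding chaperone CALR was above at 0.62 and then stood at -0.97, -1.25, -1.15 and -1.10, and ATF6, a sensor of unfolded proteins, was above at 0.64. The endoplasmic reticulum stress element, CCAAT and CCACG with 9 bases between them, was in the windows of 5 of 22 genes of this group and of 8 of all 7261. The 5, named for this match after their values were seen, were SERP1 at -0.73, PDIA6 at -0.38, CANX at -0.35, HSP90B1 at -0.25 and CALR at 0.62, which covers both sides and the inside of the range. The SERP1 value is the mean of 2 probes, at -1.21 and -0.24, and the second lies inside the range. SERP1, which protects the translocon under stress, is shown for its position farthest on the negative side of the 5, with its match, on the reverse strand and beginning 232 bases before the start, in capitals.
SERP1, chr3:150546497-150546746, minus strand: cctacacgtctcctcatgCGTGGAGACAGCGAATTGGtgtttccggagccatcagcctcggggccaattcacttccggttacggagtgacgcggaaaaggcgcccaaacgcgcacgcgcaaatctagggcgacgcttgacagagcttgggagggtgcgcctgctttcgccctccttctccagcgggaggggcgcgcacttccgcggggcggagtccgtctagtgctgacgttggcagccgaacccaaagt

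Cytosolic and mitochondrial chaperones had 11 of 26 genes (42.3%, against 17.9% of all genes) below the range and 0 above it. Their median was -0.12. HSPA8, the constitutive heat shock cognate, was at -1.26, HSPD1, the mitochondrial chaperonin, at -1.0, CCT3 at -0.95, CCT6A at -0.81 and HSPH1 at -0.76. Of the 7 measured subunits of the cytosolic chaperonin, which folds actin and tubulin, 4 were below.

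Genes that supply ribosomes, mitochondria and proteasomes lay slightly and broadly on the negative side. Over all genes 17.9% were below the range and 17.3% above it. Nuclear genes of oxidative phosphorylation had a median of -0.37 over 60, with 33 (55.0%) below the range and 1 above it, and 58 of 60 were below 0. ATP5MC3 at -0.88, ATP5MC1 at -0.82 and ATP5F1B at -0.71, parts of ATP synthase, and NDUFB9 of complex I at -0.77 were the farthest, and SDHC of complex II was at 1.05. On the self-self array the median of the group was already -0.18, and with each probe's self-self value subtracted it was -0.19. Cytosolic ribosomal proteins had a median of -0.33 over 50, with 25 below and 3 above, and -0.14 on the self-self array. RPL9 at -0.54 and RPS23 at -0.52 lay further to the negative side than the group median. On the positive side RPS12 stood at 2.24, RPL17 at 0.99 and RPL28 at 0.98. After the self-self subtraction their median was -0.14. For these 2 groups a part of the negative shift is thus present where treated RNA was compared with itself.

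Beside the counts that follow, 17.9% of all genes were below the range and 17.3% above it. Mitochondrial ribosomal proteins had a median of -0.29 over 42, with 19 below and 2 above and -0.06 on the self-self array. MRPS12 was at -0.86, MRPS23 at -0.78 and MRPL3 at -0.75, and MRPL19 at 1.04. Proteasome genes had a median of -0.37 over 33, with 17 below and 2 above, and -0.08 on the self-self array. PSMA6 at -0.71, PSMB6 at -0.70 and PSMD2 at -0.69 led them. The members above the range were PSME2 at 0.64, a part of the 11S activator, and PSMB8 at 0.61, a subunit of the immunoproteasome. Glycolysis genes had 8 of 16 below and 2 above, with a median of -0.33. LDHB was at -0.87, PGK1 at -0.83 and PFKP at -0.73, while the glucose transporter SLC2A3 was at 2.33. Translation factors had 11 of 38 below and 3 above, with a median of -0.16. The helicase EIF4A2 was the farthest, at 0.85 on the positive side, and EIF3F at -0.68 and EIF3I at -0.62 were on the other. Common reference genes, from which the housekeeping genes of a slide are often drawn, had a median of -0.32 over 21, with 10 below and 2 above, and a median of -0.0094 over those with more than 1 probe. REEP5 was at -0.89, PGK1 at -0.83 and the transferrin receptor TFRC at -0.82, and RAB7A at 0.67. Which genes set zero on these slides is not given in the sources used here.

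Several groups had members beyond the range on both sides and a median near 0. Over all genes 17.3% were above the range and 17.9% below it. Of the ATF4 program and tRNA synthetases, which answer amino acid shortage, 5 of 31 (16.1%) were above and 5 (16.1%) below, near the shares over all genes. DDIT3 at 3.22, CEBPB at 1.19 and ATF4 at 1.17 stood against PHGDH, an enzyme of serine synthesis, at -0.61, and the 12 synthetases had a median of -0.19. Of 34 collagens and matrix genes 8 were above and 7 below, with a median of -0.12. COL4A1 at 1.62, COL8A1 at 0.94 and COL6A1 at 0.93 were positive at 0 min and stood at -1.95, -0.88 and -0.82 at 8 h, while the matrix protein COMP was at -1.13 and then at -2.96. The 3 probes of COL6A1 ran from 0.04 to 2.62 at 0 min. Matrix proteases and their inhibitors had 8 of 24 below and 3 above. TIMP3, which inhibits metalloproteinases, was at -1.51, PLAUR at -1.10 and the protease MMP3 at -0.93, and ADAMTS5 at 1.06. Actin and focal adhesion genes had 6 above and 8 below among 30, with RND3 at 2.94 against ARPC1A at -0.89. Binding proteins of insulin-like growth factors and antagonists of Wnt had 3 above and 5 below among 17, with IGFBP1 at 2.35 and SFRP1 at -1.09. DKK1, a Wnt antagonist, was at -0.97 and stood at 2.95 at 8 h.

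For the remaining groups the counts were as follows, beside 17.3% of all genes above the range and 17.9% below it. Spliceosome genes had 6 above and 8 below among 32, with HNRNPL at 1.15 and HNRNPC at 1.11 against SNRPF at -1.61 and HNRNPAB at -0.97. Ribosome biogenesis had 4 above and 7 below among 24, with NOP14 at 1.49 and the methyltransferase FBL at -0.87. Sterol and fatty acid synthesis had 4 above and 3 below among 19, with LSS at 1.36 and ACLY at -0.78. The mRNA decay machinery had 5 above and 5 below among 45, with the ubiquitin ligase CNOT4 at 1.78 and LSM2 at -0.84.

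Markers of cell types do not identify the line here, because a ratio between 2 samples gives no level. Of 17 fibroblast markers 4 were above and 5 below, where 17.3% and 17.9% of all genes were. Their median was -0.13, or 0.017 after subtraction of the self-self values. Of 13 markers of B lymphocytes 1 was above, the kinase BLK at 2.63, and 0 below. Of 11 epithelial markers 0 were above and 2 below, KRT18 at -0.92 and KRT7 at -0.55, and of 12 markers of T and NK cells none was outside the range.

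Genes with 3 or more probes show how far the probes of a gene gave the same side. Of the genes named in this paragraph only TLE4, PDE4DIP and PNISR had probes of more than 1 accession. For the others the probes are repeats under 1 accession and not separate measures of the gene. Of 214 such genes 9 (4.21%) had every probe above the range and 19 (8.88%) every probe below it. RARA, the retinoic acid receptor alpha, had the largest median, 2.82 over 3 probes that ran from 2.30 to 3.24. TLE4, a co-repressor, was at 1.35, PDE4DIP, a centrosome protein, at 1.18, and HNRNPC at 1.08 over 10 probes from 0.85 to 1.69. SAT1, which breaks down polyamines, was at 1.07 over 9 probes from 0.90 to 2.07, and EIF4A2 at 0.88 over 9, PNISR at 0.85 and the elongation factor ELL2 at 0.71. On the negative side MALL, a MAL-like membrane proteolipid, was at -1.33 over 3 probes and GABBR2, a GABA receptor subunit, at -1.10 over 3. CCT3 was at -1.05 over 9 probes from -1.09 to -0.61, and AMPD2 at -0.84, the glycolytic enzyme PFKP at -0.81, HNRNPA1 at -0.79, MRPL3 at -0.77 and the synthetase HARS1 at -0.65 followed. HNRNPC and HNRNPA1, both RNA-binding proteins of the hnRNP class, thus lay on opposite sides, with every probe of each outside the range.

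Spots that repeat 1 accession give the spread within the slide. For 71 genes with 7 to 12 such spots, 634 in all, the median SD was 0.14 at 0 min and 0.07 on the self-self array. The median robust SD, on which single stray spots weigh less, was 0.07 at 0 min and 0.05 on the self-self array. Over the 1588 genes with more than 1 probe the pooled SD among probes of a gene was 0.37 at 0 min and 0.16 on the self-self array. A pooled SD is another measure than a median SD, and these genes include those with repeated spots. The values are therefore not a contrast of repeated spots with separate probes. By the median of their spots 11 of the 71 genes were above the range and 28 below it. All spots were above for 3 genes and below for 15, and 7 genes had spots on both sides. GAPDH, a glycolytic enzyme often used as a reference, had 7 spots from 0.62 to 0.85 and 1 at -0.58. On the self-self array these 7 spots lay between 0.40 and 0.49 and the other was at -0.18. ACTB, cytoplasmic actin, ran from -0.53 to 0.76 over 9 spots, and from -0.22 to 0.45 on the self-self array. ARF3, a small GTPase of the Golgi, had 8 spots between 1.78 and 2.03 and 1 at -0.04. These 3 genes were picked after their values were seen. A single spot that departs from the rest is therefore seen for GAPDH and ARF3, and GAPDH also carries an offset of the same sign where treated RNA met itself.

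**Figure D4:**
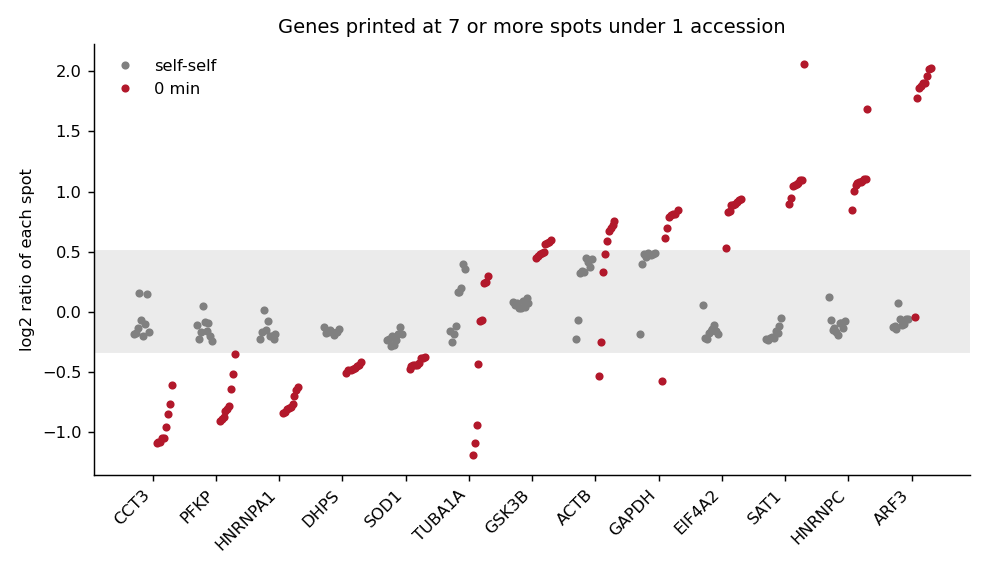
Log2 ratio (vertical axis) of every spot of 13 genes printed at 7 or more spots under 1 accession, on the self-self array (grey) and the 0 min array (red); the shaded band is the self-self range. The spots of CCT3 and HNRNPA1 lie together below the range and those of HNRNPC above it, while 1 GAPDH spot and 1 ARF3 spot lie apart from the rest.

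The 0 min array was then set beside the later harvests over 13091 probes measured on all 6 arrays. At 0 min 842 probes were above 1 and 110 below -1, a ratio of 7.65. At 10 min the counts were 1773 and 1855, at 30 min 1637 and 1111, at 1 h 482 and 605 and at 8 h 2323 and 1352, so ratios of positive to negative from 0.80 to 1.72. The ratio was thus greater at 0 min than on the other harvests. As a difference the excess was not greatest there, since the 8 h counts lie further apart. On the self-self array 12 probes were above 1 and 2 below -1, a ratio of 6 from few probes. On the 1 h array 1 probe was above 2, against 195 at 0 min, and that array stands apart from its neighbours.

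Probes were grouped by their mean at 30 min and 8 h, which leaves the 0 and 10 min values out of the grouping. In the 69 probes with a mean above 4 the median was 3.24 at 0 min and 4.16 at 10 min, a quotient of 0.78. In the 93 probes between 3 and 4 the quotient was 0.76, and in the 327 between 2 and 3 it was 0.70. On the other side the 25 probes below -3 had a median of -0.94 at 0 min and -3.32 at 10 min, a quotient of 0.28, and the 84 probes between -3 and -2 had -0.89 and -2.30, a quotient of 0.39. Nearer to 0 the quotients were 0.63 for the 1376 probes between 1 and 2 and 0.44 for the 5748 between 0 and 1, against 0.41 for the 1011 between -2 and -1 and 0.41 for the 4358 between -1 and 0. The 0 min median was thus closer to that at 10 min on the positive side for probes beyond 1, and the sides were nearly alike within 1 of 0. Against 8 h the 0 min median of the probes between 1 and 2 was 0.66 beside 1.56. These medians are a description, since all arrays have the same dye orientation, differ in spread and may come from shared cultures.

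**Figure D5:**
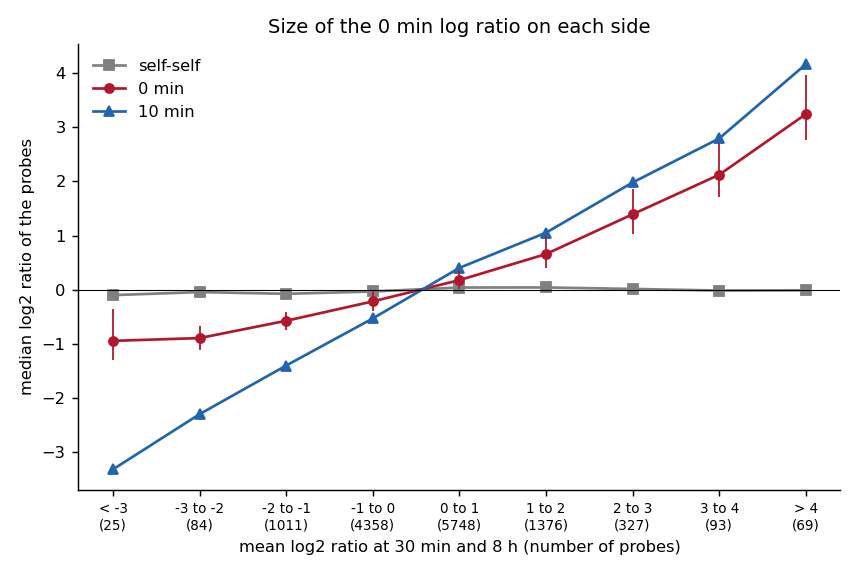
Median log2 ratio (vertical axis) at 0 min (red, bars from the 25th to the 75th percentile of probes), at 10 min (blue) and on the self-self array (grey) for probes grouped by their mean at 30 min and 8 h (horizontal axis, number of probes in brackets). The 0 min and 10 min medians are 3.24 and 4.16 in the highest group and -0.94 and -3.32 in the lowest.

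On the self-self array a few probes lay far from 0, and those given here are single-gene probes that were also measured at 0 min. PCDH8, a protocadherin, was at 5.60, DBF4, an activator of replication kinase, at 5.29 and PHKG2, a phosphorylase kinase subunit, at 3.97 there, and at 0 min they stood at -0.16, 0.02 and 0.45. PTK2B at -2.70, CCDC9 at -1.39 and STT3B at -1.0 were the lowest of these, with 0.18, -0.12 and -0.51 at 0 min. Large values on 1 array thus occurred where both channels held the same RNA, for 17 of 13575 probes above 1 and 6 below -1.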

How the data were processed

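Two-channel arrays of 14080 probes were read, with the 2 arrays of the 0 min harvest as the comparison and the other 4 given beside them. The deposited values are log2 ratios. Per the labels' protocols, the authors averaged background-subtracted intensities, divided sample by reference, normalised within the slide on housekeeping genes and discarded ratios with a quality below 0.5. That the base is 2 was read from the values themselves: raised to a power of 2 they fall on multiples of 1/10000 (tolerance 0.05 of a step) for 99.47% or more on each array. Centring between arrays was not found, and the numerator is not given in the sources used here.

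The most repeated value of each array, 0.52 at 333 probes of the self-self array and 0.88 at 367 probes of the 0 min array, was treated as not measured. The platform annotation names a single gene for 11304 probes, more than 1 for 446 and none for 2330, and the RefSeq gene table held 11282 of the single-gene ones. Values were summarised with Python 3.11.15, pandas 2.3.3 and numpy 2.4.6, and the counting was checked on simulated data. A robust SD is the scaled median absolute deviation. The genes named are the 12 per side farthest from 0 at 0 min (single-gene probes beyond the range at 0 min and inside it on the self-self array), the 8 per side with 3 or more probes all beyond the range, up to 5 members of each list with up to 2 of the smaller side, and the 3 probes per side farthest from 0 on the self-self array. Lists share members. The members, the lists and the rule were chosen with earlier results of these data known. Alternatives changed the treatment of the repeated value, the zero, the limit and the probes counted.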

Additional observations from a re-analysis of the deposited data

Results flagged for a closer look

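For 12 probes of 11 genes the 0 min value and the 8 h value were both beyond 1 in size and of opposite sign. Each harvest has 1 array, and the difference was not tested.

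From negative to positive went 5 probes. ATP6V0A1, a proton pump subunit, was at -2.46 at 0 min and at 1.75 at 8 h, with no value between. The repressor SNAI1 went from -2.22 to 1.13 and the replication gene GINS3 from -1.24 to 1.26. SIAH2, a ubiquitin ligase, went from -1.03 to 1.29, and MACIR from -1.03 to 1.96.

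From positive to negative went 7 probes. FKBP8 went from 1.08 to -1.19, the syndecan SDC3 from 1.23 to -1.03 and the kinase VRK1 from 1.26 to -1.26. COL4A1, a basement membrane collagen, went from 1.62 to -1.95, with 0.30, -1.27 and -1.70 at 10 min, 30 min and 1 h. SELENON went from 1.91 to -1.56. Of the 3 probes of TLN1, a focal adhesion protein, those at 2.20 and 2.21 stood at -1.10 and -1.17 at 8 h, and their self-self values were 0.48 and 0.36.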

How the results depend on the processing

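The counts of probes beyond the range depend on its limits. Limits at the central 95% made 3656 probes positive, and the widest ones tried (-0.87 to 1.64) left 332 positive and 278 negative. A fixed limit of 1 gave 869 positive and 139 negative. Counting only probes inside the range on the self-self array, an alternative chosen after seeing the data, gave 2305 and 2630. The positive share of the probes outside was 46.4% as reported, 40.7% with each array centred on its median, 55.9% with 3 robust SDs and 86.2% with the limit of 1. Some medians of gene lists moved, and those of actin genes, the ATF4 program, mRNA decay genes and fibroblast markers changed sign. The medians of ribosome biogenesis and epithelial markers (self-self subtracted) and of the spliceosome and B lymphocyte markers (centred), all within 0.05 of 0, also changed sign. With self-self values subtracted, NF-kB stood at 1.41, actin genes at -0.029, ribosomal proteins at -0.14, oxidative phosphorylation at -0.19, proteasome at -0.25 and fibroblast markers at 0.017. With the repeated value kept, tubulins stood at -0.39. Over genes with more than 1 probe, targets of nonsense-mediated decay stood at 1.19, the ATF4 program at 0.028, the spliceosome at 0.30, actin genes at 0.38, ribosome biogenesis at -0.24, mRNA decay at 0.073 and reference genes at -0.0094. Centring and the median probe of a gene left all 37 list medians within the spread used to judge them. Centring moves every 0 min value by the same small amount, so it could hardly do otherwise. The 24 named genes stayed beyond the range under the 3 alternatives tried for them. That outcome was fixed by their choice, as the farthest from 0 with self-self values inside the range, and is no support for them. No paired analysis was possible because each condition has 1 array.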
